A study of Rattus norvegicus with 4 samples.

Results

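The CC chemokine ligands are small secreted proteins that attract leukocytes, and 10 of their genes were followed here in exposed rat macrophages: Ccl2, Ccl3, Ccl4, Ccl5, Ccl6, Ccl7, Ccl9, Ccl17, Ccl20 and Ccl22. They were chosen by name, with earlier results of these data known, and 10 other measured CC ligand genes are not among them. Their probes are those, controls left out, whose RefSeq accession maps to 1 of these genes. The 10 genes had 13 probes and 34 spots on each array, of 16581 named genes with 21109 probes. NR8383 cells are rat alveolar macrophages that were obtained by lung lavage of a normal animal and kept as a permanent line, which grows partly attached and partly floating. All cells were at 20 passages, were grown for 48 h in flasks and then received 1.2 cm²/cm² of carbon nanotubes carrying NH2 groups (named NRCWE049 in the labels) for 4 h. The 4 arrays, called replicates 1 to 4, make up 1 group. The design text calls them biological replicates, and p-values measure only the spread between these 4 samples. Unexposed cells were not analysed here, so the values describe exposed cells and show no effect of the nanotubes, and 1 cell line stands for the macrophage. In such bulk RNA, fewer cells that express a gene and less RNA per cell cannot be told apart.

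CC chemokines act through G protein-coupled receptors on the cells that they attract. In macrophages many of them are made on demand when NF-kB is activated, and others, such as CCL17 and CCL22, are known products of macrophages and dendritic cells exposed to interleukin 4 through STAT6. Chemokine mRNAs often carry AU-rich elements and are short-lived, so that their level follows recent transcription.

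In the RefSeq gene order of the GRCr8 assembly, 9 of the 10 genes sit in clusters. On chromosome 10, Ccl2 and Ccl7 are neighbours. After 30 other protein-coding genes, Ccl5, Ccl9, Ccl6, Ccl3 and Ccl4 follow each other without another protein-coding gene between them. On chromosome 19, Ccl17 and Ccl22 have 1 protein-coding gene between them. Promoter windows of 300 bases, from 250 before to 50 after the annotated start, were at hand from RefSeq (GRCr8) for 6 of the 10 members: Ccl6, Ccl7, Ccl9, Ccl17, Ccl20 and Ccl22. Of the 15 pairs among these windows, the neighbours Ccl6 and Ccl9 had the highest local alignment score, 61 against 8 to 14 for the other 14 pairs. Their alignment covered 139 columns, of which 102 were identical (73.4%), with 11 bases in the longest run that both windows share. Both stretches are shown because the genes lie side by side and were both lowest in replicate 2. Capitals mark the bases that are identical in the alignment.
Ccl6 (chr10:68883388-68883524, minus strand): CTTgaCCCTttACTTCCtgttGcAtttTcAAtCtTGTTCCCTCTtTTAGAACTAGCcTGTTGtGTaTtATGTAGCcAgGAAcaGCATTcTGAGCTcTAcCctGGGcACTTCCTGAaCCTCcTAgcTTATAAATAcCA
Ccl9 (chr10:68868828-68868966, minus strand): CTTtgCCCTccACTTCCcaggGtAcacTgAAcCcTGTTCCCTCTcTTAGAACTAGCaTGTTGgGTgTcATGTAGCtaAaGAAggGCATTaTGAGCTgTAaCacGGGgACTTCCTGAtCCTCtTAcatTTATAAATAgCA
In both stretches, the letters TATAAA lie close to the 3′ end of the alignment, at position -32 of the Ccl6 window and at position 40 of the Ccl9 window, counted from the annotated start. The aligned bases therefore lie upstream of the annotated start in Ccl6 and across it in Ccl9. Searched on both strands, TATAAA was in 3 of the 6 members' windows (Ccl6, Ccl7 and Ccl9) and in 14.2% of all 33469 windows. An NF-kB consensus was in 3 of 6 (Ccl7, Ccl9 and Ccl20) and in 7.51% of all windows. The AP-1 letters TGANTCA were in the Ccl7 window and in 7.33% of all windows. A STAT6 consensus, TTC and GAA with 4 bases between them, was in the Ccl17 window and in 7.28% of all windows. A match describes these letters and is not a shown binding site.

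The arrays detected a similar number of probes, between 19143 and 19311 of 45598, and their number limits the precision. Replicates 3 and 4 lay closest together: the SD of the log2 difference between them over 8713 detected genes was 0.183, against 0.282 to 0.344 for the other 5 pairs. Among 972 probes with 8 or more usable spots per array, 34.4% differed between replicates 3 and 4 by over 3 standard errors of their spots, against 49.2% to 66.5% in the other pairs. They were kept as separate samples because the design text calls them biological replicates. Spot noise alone cannot tell separate samples from 1 RNA hybridised on a pair of arrays. The macrophage identity in the label was met by 11 of 12 macrophage markers, among them Cd68, Csf1r and Spi1, with the scavenger receptor gene Marco not well above background on any array. Of 29 measured markers of T and NK cells, dendritic cells, epithelium and neutrophils, 7 were detected on all arrays. None of the 8 epithelial markers was. From the T and NK cell list Cd3d, Cd4, Nkg7 and Gzmb were. From the dendritic cell list Cd83 and Cd1d1 were, and from the neutrophil list S100a8 was. Cd3e and Cd3g of the T cell receptor complex and the T cell gene Cd8a were detected on no array. Whether the detected markers came from such cells or from the macrophages themselves was not tested. The part of any such cells in the chemokine signals was not tested either.

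Most of the 10 chosen ligands were detected in the exposed cells. The Agilent software marks each spot whose signal is well above background. A gene counted as detected if, on each of the 4 arrays, more of the spots of 1 of its probes carried that mark than not. By that rule 7 of the 10 members were detected, against 52.5% of all 16581 named genes: Ccl2, Ccl3, Ccl4, Ccl5, Ccl6, Ccl9 and Ccl22. Ccl7 and Ccl17 were detected on 3 arrays, all but replicate 4, and Ccl20 on none. Of the 10 other CC ligand genes of the rat that were measured, 0 were detected on all arrays and 6 were detected on none. Both sets were chosen with earlier results of these data known, so the contrast between them is no test. The eosinophil attractant Ccl24, chosen after its values were seen, was detected on 3 arrays, at levels of -6.17, -6.25 and -6.46 in replicates 1 to 3, and was not well above background in replicate 4 (-6.65).

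**Figure D1:**
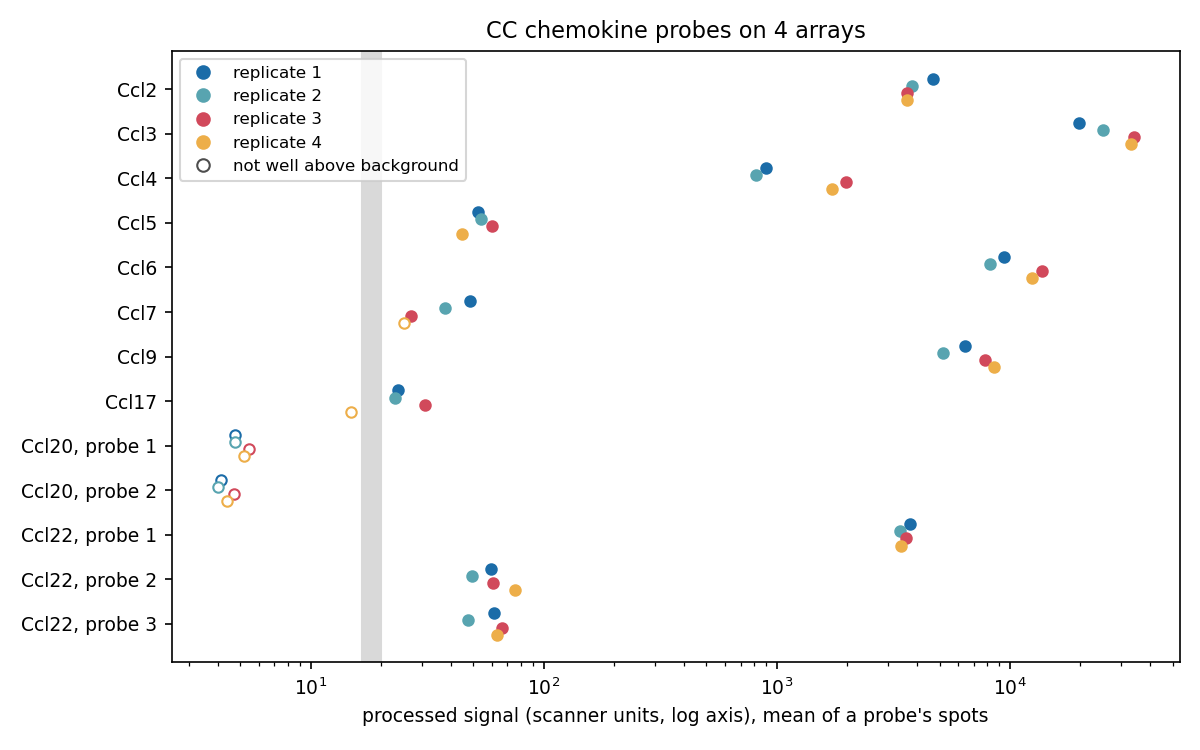
Processed signal (scanner units, log axis) of each of the 13 probes of the 10 CC chemokine genes on the 4 arrays. Each point is the mean over a probe's spots, open points are not well above background, and the grey band spans the lowest signal that was well above background on each array (16.6 to 20.13). Both Ccl20 probes lie left of the band on all arrays, and of the 3 Ccl22 probes 1 lies far to the right of the others.

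A level below is a probe's log2 signal relative to the array's 75th percentile over the probes that were detected on all 4 arrays, and serves to follow 1 probe between replicates. It does not rank the genes, because probes differ in how strongly they bind. Variation was tested with limma over all 8713 detected genes, as an F test that sets the variance between replicates against that of genes of like signal. After Benjamini-Hochberg adjustment the test called 0 of the 7 detected members (adjusted p from 0.969 to 0.978, limma) and 0.0115% of all genes. At an unadjusted p under 0.05 it held 2 members, Ccl2 and Ccl4, and 4.3% of all genes. No detected member spanned over 2-fold from the lowest to the highest replicate, as 2.66% of the genes did. The median SD of the detected members was 0.21, against 0.15 over all detected genes, and each of the 7 had an SD above that median. That comparison is not matched for signal. Against the SD expected at like signal, Ccl5 had 1.03 times as much, and the other detected members between 1.57 (Ccl6) and 3.475 times (Ccl4).

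Among the ligands of the receptor CCR2, which draws monocytes out of the blood, Ccl2 had the second largest SD of the detected members. Ccl2 had signals of 4707, 3808, 3619 and 3636 in replicates 1 to 4, and levels of 1.26, 0.94, 0.54 and 0.60. It was highest in replicate 1, with replicates 3 and 4 close together. The mean was 0.83 ± 0.33 (SD, n = 4), and the highest replicate was 1.65-fold the lowest (unadjusted p = 0.0184, adjusted p = 0.969, limma). Ccl2 has 10 spots on each array, which gives its level a check within the array that most members lack. The 9 or 10 usable spots had an SD of 0.0457 to 0.0857 within an array, against 0.334 between arrays. Spots of replicate 1 lay between 1.20 and 1.34 and those of replicate 2 between 0.87 and 1.03, without overlap. Those of replicate 3 (0.41 to 0.65) and of replicate 4 (0.50 to 0.76) overlapped each other and lay below both others. Spots of 1 array share 1 RNA sample, so this separates the arrays and adds no replicate.

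**Figure D2:**
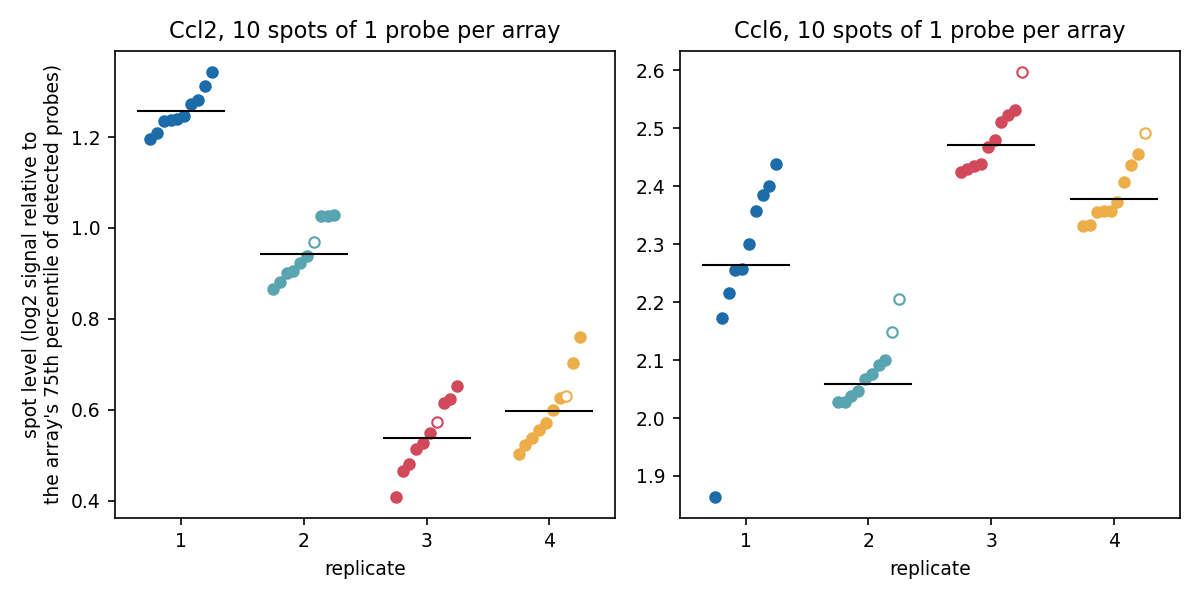
Level of each of the 10 spots of the Ccl2 probe (left) and of the Ccl6 probe (right) on the 4 arrays, as log2 signal relative to the array's 75th percentile of the probes detected on all arrays, with the spots of an array sorted from low to high. Open points are spots with an outlier flag, which were left out, and lines are means of the others. The Ccl2 spots of replicates 1 and 2 do not overlap those of any other array, and 1 Ccl6 spot of replicate 1 lies at 1.86, far below the other 9.

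Ccl7, the neighbour of Ccl2 on the chromosome and another CCR2 ligand, lay close to the background. Its signals were 48.3, 37.9, 27.0 and 25.3, and in replicate 4 only 1 of its 2 spots was well above background. Its levels were -5.35, -5.71, -6.53 and -6.57. Replicate 1 was again the highest and replicates 3 and 4 the lowest, and the span was 2.33-fold, with the lowest value not well above background. Because it was not detected on every array, Ccl7 was not part of the variance test.

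Ccl3, Ccl4 and Ccl5 attract monocytes, macrophages and T cells. Ccl3, which encodes MIP-1α, had signals of 19822, 25088, 34125 and 33084. Its levels were 3.33, 3.66, 3.78 and 3.78. Replicate 1 was the lowest and the other 3 lay close together, with a mean of 3.64 ± 0.21 (SD, n = 4) and a span of 1.37-fold (unadjusted p = 0.104, adjusted p = 0.969, limma). Without replicate 1 the span was 1.09-fold.

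Ccl4, which encodes MIP-1β, varied most of the detected members. On its only spot it had signals of 902, 819, 1989 and 1726, and levels of -1.13, -1.27, -0.33 and -0.48. Replicates 1 and 2 were low and replicates 3 and 4 high, with a gap between the pairs. The mean was -0.80 ± 0.47 (SD, n = 4) and the span 1.93-fold (unadjusted p = 0.00733, adjusted p = 0.969, limma), a larger SD than that of 97.7% of detected genes. The scanning software put the error of each of these 4 signals at 10.0%. Each spot around Ccl4 was set, as log2 deviation, against the median of the same spot on the other arrays. The median of these neighbours was 0.15 in replicate 1 and between -0.05 and 0.03 in the others.

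Ccl5, the gene of RANTES, gave signals of 52.3, 54.0, 60.2 and 44.6, and levels of -5.24, -5.20, -5.37 and -5.75. Replicate 4 was the lowest, the mean was -5.39 ± 0.25 (SD, n = 4) and the span 1.47-fold (unadjusted p = 0.437, adjusted p = 0.978, limma). Its 2 spots on an array read 48.5 and 56.4 in replicate 1, 34.0 and 85.6 in replicate 2, 41.4 and 87.6 in replicate 3, and 38.7 and 51.3 in replicate 4. In replicates 2 and 3 the spots lay farther apart than the arrays did, and in replicates 1 and 4 they did not. An order of the replicates can therefore not be read from Ccl5.

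Ccl6 and Ccl9, whose promoter stretches are shown above, are rodent chemokines that act through CCR1. Ccl6 had signals of 9464, 8253, 13825 and 12495, and levels of 2.27, 2.06, 2.47 and 2.38. Replicate 2 was the lowest and replicate 3 the highest, with a mean of 2.29 ± 0.18 (SD, n = 4) and a span of 1.33-fold (unadjusted p = 0.168, adjusted p = 0.969, limma). Within an array the SD over its 8 to 10 usable spots was 0.0287 to 0.165, against 0.177 between arrays. The widest spread was that of replicate 1, where 1 spot at 1.86 lay in an area with a neighbour median of -0.80. Usable spots of replicate 2 (2.03 to 2.10), and its flagged spots at 2.15 and 2.21, lay below all those of replicate 4 (2.33 to 2.46).

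Ccl9 had signals of 6448, 5158, 7852 and 8590 on 1 spot, and levels of 1.71, 1.38, 1.66 and 1.84. Replicate 2 was again the lowest, with a mean of 1.65 ± 0.19 (SD, n = 4) and a span of 1.37-fold (unadjusted p = 0.134, adjusted p = 0.969, limma). Without replicate 2 the span was 1.14-fold for Ccl9 and 1.15-fold for Ccl6. The ratio of Ccl9 to Ccl6 within an array, relative to that in replicate 1, was 0.917 in replicate 2, 0.834 in replicate 3 and 1.01 in replicate 4.

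Ccl17 and Ccl22 are ligands of CCR4, which is carried by type 2 helper and regulatory T cells. Ccl22 had signals of 3735, 3385, 3604 and 3419 on its brightest probe, and levels of 0.92, 0.77, 0.53 and 0.51. Replicates 1 and 2 were above replicates 3 and 4, with a mean of 0.68 ± 0.20 (SD, n = 4) and a span of 1.33-fold (unadjusted p = 0.135, adjusted p = 0.969, limma). The 3 probes of Ccl22 disagreed. The other pair read signals of only 47.6 to 75.1, and their levels were -5.05, -5.33, -5.37 and -5.00 for 1 probe and -5.01, -5.38, -5.23 and -5.25 for the other. Neither placed replicate 2 above both replicate 3 and replicate 4, so the order of the replicates rests on 1 probe. It also rests on the scaling, since the unscaled signal of that probe was higher in replicate 3 (3604) than in replicate 2 (3385).

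Ccl17 had signals of 23.7, 22.9, 31.1 and 15.0, at levels of -6.38, -6.43, -6.33 and -7.33. The first 3 replicates lay within a narrow range just above the background limit, and replicate 4 was not well above background. Ccl20, the ligand of CCR6, stayed below the detection limit on all 4 arrays, with signals between 3.99 and 5.45 over its 2 probes. Its transcript was not detectable at the sensitivity of these probes.

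**Figure D3:**
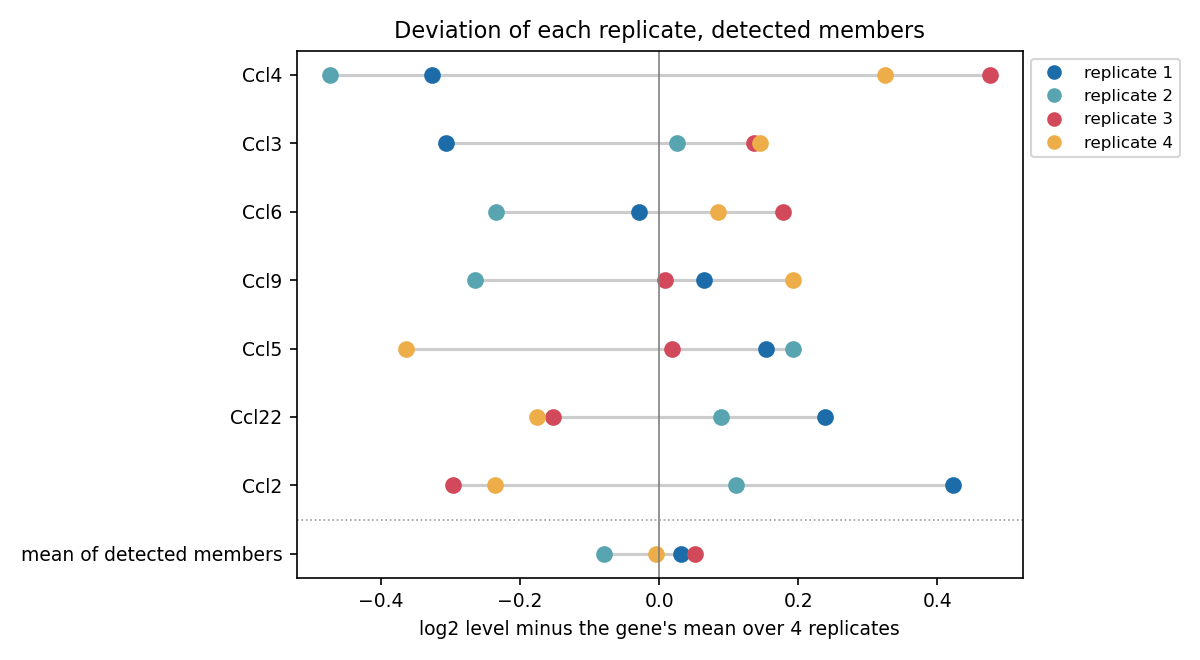
Log2 level minus the gene's mean over the 4 replicates for the 7 detected CC chemokine genes, with 1 point per replicate and a line from the lowest to the highest, and below the dotted line the mean of the 7. Ccl4 is low in replicates 1 and 2 and high in replicates 3 and 4, Ccl2 and Ccl22 run the other way, and the mean stays between -0.08 and 0.05.

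The detected ligands had their highest and lowest values in different replicates. The mean deviation of the 7 detected members from their own means was 0.03, -0.08, 0.05 and 0.00 in replicates 1 to 4, a range of 0.132. Ccl2 and Ccl22 were highest in replicate 1 (2 of 7, against 34.6% of all detected genes), Ccl4 and Ccl6 in replicate 3 (2 of 7, against 15.9%), Ccl3 and Ccl9 in replicate 4 (2 of 7, against 24.7%) and Ccl5 in replicate 2 (1 of 7, against 24.8%). The lowest value was in replicate 2 for Ccl4, Ccl6 and Ccl9 (3 of 7, against 27.4%), in replicate 4 for Ccl5 and Ccl22 (2 of 7, against 23.7%), in replicate 1 for Ccl3 (1 of 7, against 28.5%) and in replicate 3 for Ccl2 (1 of 7, against 20.4%). Ccl5 is counted here only to account for all 7, since its spots give no order of the replicates. Ccl3 had levels of 3.775 in replicate 3 and 3.784 in replicate 4, so its highest replicate is not settled either. Ratios within an array do not depend on the scaling. The ratio of Ccl4 to Ccl2, the members with the largest SDs and chosen for that, was 1.12 in replicate 2, 2.87 in replicate 3 and 2.48 in replicate 4, relative to replicate 1. For Ccl3 to Ccl2 the same ratio was 1.56, 2.24 and 2.16. The ratio of Ccl6 to Ccl2 was 1.08, 1.90 and 1.71, that of Ccl9 to Ccl2 0.989, 1.58 and 1.72, and that of Ccl22 to Ccl2 1.12, 1.26 and 1.19. The ratio of Ccl7 to Ccl2 was 0.970 in replicate 2 and 0.728 in replicate 3, and replicate 4 gives none because Ccl7 was not well above background there. Ccl2 itself was lowest in replicates 3 and 4, which raises each ratio to it there: the level of Ccl9 was lower in replicate 3 (1.66) than in replicate 1 (1.71), and that of Ccl22 was lower in replicates 3 and 4 than in replicate 1.

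The 3 genes whose levels followed Ccl4 most closely over the 4 arrays were Tfap4, which encodes a transcription factor, Itgam, the integrin gene of CD11b and one of the macrophage markers above, and Gbp5, which encodes a guanylate-binding protein. Their root mean square differences from the centred levels of Ccl4 were 0.0398, 0.0459 and 0.0471, against a median of 0.427 over 8706 genes. Itgam had levels of -2.08, -2.17, -1.21 and -1.30, low in replicates 1 and 2 like Ccl4. The nearest other member was Ccl6 at 0.269, with 638 genes closer, followed by Ccl3 at 0.314 and Ccl9 at 0.328. Ccl2 was the farthest, at 0.672. Likeness over 4 points is a description of these arrays.

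Among the CC receptor genes, Ccr9, the receptor of CCL25, was detected on all arrays at a level of -4.64 ± 0.21 (SD, n = 4). Ccr2, Ccr4 and Ccr6, the receptors of Ccl2 and Ccl7, of Ccl17 and Ccl22 and of Ccl20, were detected on no array. Ccr1, the receptor of Ccl6 and Ccl9, was detected on 3 arrays at -1.15, -1.90 and -1.78, and its spot in replicate 4 had an outlier flag; these 4 receptors were named after their values were seen. Of 3 atypical receptors, Ccrl2, which binds chemerin, was detected (-2.58 ± 0.36), and the scavenging receptor genes Ackr2 and Ackr3 were not.

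**Figure D4:**
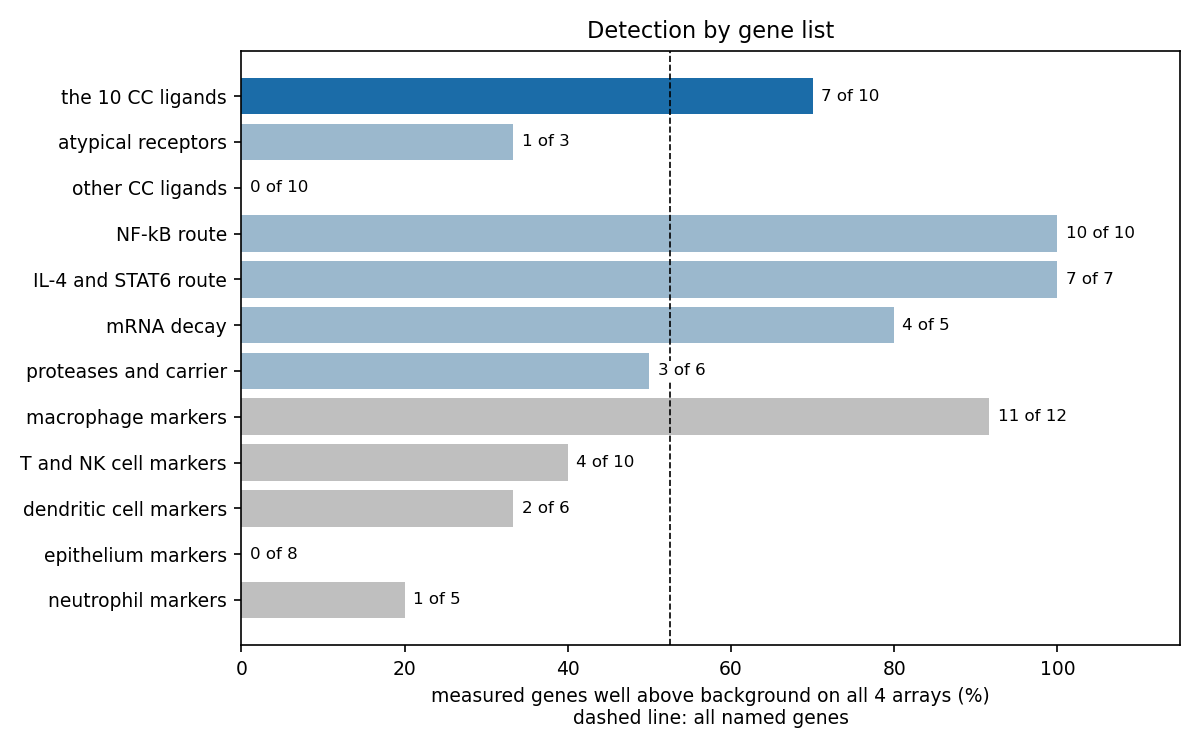
Percentage of the measured genes of each list that were well above background on all 4 arrays, with counts beside the bars. The dark bar holds the 10 CC chemokine ligands, light blue bars are lists of related genes, grey bars are markers of cell types, and the dashed line is the 52.5% of all named genes. All measured genes of the NF-kB and STAT6 lists were detected, and none of the 10 other CC ligands was. Members and lists were chosen with earlier results of these data known, so the bars test no difference.

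Genes of the routes that act on these ligands were mostly detected. Of the NF-kB route, 10 of 10 measured genes were, and 3 of them had an unadjusted p under 0.05 in the variance test (4.3% of all genes did), with 0 called after adjustment. These were Tnf, Il1b and Tlr2, the last named after its values were seen, whose low value in replicate 1 lay in a dim area of the array (neighbour median -0.50). Tnf, which encodes a cytokine that induces many chemokines, had levels of 1.29, 1.02, 1.80 and 1.73 (1.46 ± 0.37, SD, n = 4). Like Ccl4 it had its low values in replicates 1 and 2 and its high ones in replicates 3 and 4 (unadjusted p = 0.0103, adjusted p = 0.969, limma). Il1b, the gene of interleukin 1 beta, ran the other way, with 1.63, 1.68, 1.20 and 1.16 (1.42 ± 0.28; unadjusted p = 0.0367, adjusted p = 0.969, limma). Il1a had a level of -0.64 ± 0.16.

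Of the IL-4 and STAT6 route, 7 of 7 genes were detected, among them the receptor genes Il4r (-3.27 ± 0.16), Il13ra1 (-3.77 ± 0.25) and Il2rg (-3.0 ± 0.35), and 0 of the 7 had an unadjusted p under 0.05 (limma). Of 5 measured genes for proteins that act on the decay of mRNAs, 4 were detected. Zfp36l1, a decay factor, had levels of -1.55, -1.41, -0.83 and -0.78, higher in replicates 3 and 4 (unadjusted p = 0.0194, adjusted p = 0.969, limma). Zfp36l2 (2.19 ± 0.17), the stabilising factor gene Elavl1 (2.27 ± 0.20) and the ribonuclease gene Zc3h12a (-1.44 ± 0.32) were the others, and Zfp36, the gene of tristetraprolin, stayed below that limit on all arrays. Among 6 genes for proteins that cut or carry chemokines, Mmp12 (-4.42 ± 0.23), Mmp9 (-2.16 ± 0.15) and the cathepsin gene Ctsd (6.03 ± 0.20) were detected. The peptidase gene Dpp4, Mmp2 and the proteoglycan gene Srgn were not. Undetected here means not detectable at the sensitivity of the probes, as for Ccl20, and Srgn and Zfp36 each rest on 1 probe.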

How the data were processed

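Total RNA (100 ng per sample, RNA integrity above 7.5, per the labels' protocols) was labelled with Cy3 and hybridised to one-colour Agilent rat arrays. The deposited intensity is each spot's processed signal, which Agilent Feature Extraction 11.0.1.1 had corrected for background, per the file headers. Whether the authors normalized between arrays is not stated in what was used here. All 4 arrays carry the same scan label in the file headers. Array position and replicate cannot be told apart. Of 62976 spots per array, 4259 control spots and those with nonuniform or population outlier flags were left out, and 0 were saturated. Spots of a probe were averaged as log2 signals. As only 39.3% of the 45598 probes passed detection on every array, each array was scaled to the 75th percentile of these probes, which lay at 1970, 1980, 2493 and 2402.5.

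Accessions were named through RefSeq's gene table (GRCr8) without versions, which named 21109 probes. A gene's level came from its brightest probe, detected ones first. The variance test used limma 3.58.1 (R 4.3.3) over 8713 detected genes, and a gene that it does not call may still vary. Promoters were aligned with Biopython 1.88. The named genes are the 10 members, the first 3 detected genes of each list, detected or undetected genes in full where these are 5 or fewer, and the 3 genes most like the detected member with the largest SD. The CC receptor list is not reported here in full. The members and lists were chosen with earlier results of these data known. Alternatives were other scalings, background correction, detection rules, flags, probe choice, filters, variance models, dim array areas and leaving out each replicate. The background alternative used the median spot signal in place of the mean. Averaging replicates 3 and 4 was chosen after seeing the data.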

Additional observations from a re-analysis of the deposited data

Results flagged for a closer look

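Of 56 sets of 4 replicate values examined, 3 had 1 replicate whose gap to the nearest other, as a share of the whole range, was above Dixon's critical value for 4 samples, where chance alone gives about 2.8 (1 in 20). For Ccl17 that share was 0.894: replicate 4 lay at -7.33, where its spot was not well above background, against -6.43 to -6.33 in the others. For Tlr2, the gene of a receptor for bacterial lipoproteins upstream of NF-kB, it was 0.905: replicate 1 lay at -1.54, against 0.17 to 0.35 in the others. The 47 spots around the single Tlr2 spot had a median log2 deviation of -0.50 on that array, and between -0.02 and 0.07 on the others. The part of that dim area in the low value was not tested. For Nfkb1, which encodes the NF-kB subunit p105/p50, the share was 0.899, with replicate 4 at -0.82 and the others between -1.18 and -1.15.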

How the results depend on the processing

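The counts of detected, variable and over 2-fold members kept within 1.5 times their main value under every alternative run, except that leaving out 1 replicate gave between 0 and 1 members spanning over 2-fold: without replicate 4, Ccl7 counted as detected and spanned over 2-fold. The range of the mean deviation of detected members lay between 0.0509 and 0.131 when 1 replicate was left out, lowest without replicate 2, against 0.132 with all. Detected members numbered 7 to 9, with Ccl7 and Ccl17 added under a weaker detection flag, on at least 3 arrays, on at least 1 array and without replicate 4. The 52.5% of all named genes belongs to the main rule. Their share under the looser rules is not given here, so the higher count of members has no background beside it. Over 14 alternatives of the variance test with limma, 0 members were called (lowest adjusted p from 0.608 to 0.983), 1 to 3 had an unadjusted p under 0.05, and 0 to 10 genes in all were called. With replicates 3 and 4 averaged as 1 sample, Ccl4 spanned 1.83-fold and Ccl2 1.61-fold. Under every setting, the median deviation of all detected genes from their own means was at most 0.0443 in size on any array. Under 8 settings with all replicates, Ccl2 and Ccl22 were highest in replicate 1 and Ccl4 in replicate 3 in each, while Ccl3 and Ccl5 kept their highest replicate in 6. With the mean over its probes, Ccl22 lay at -3.24. Of values for single genes, 146 moved by less than 1 SD and 22 by more, 14 of these because 2 scalings set another zero. Signal near background limits Ccl5, Ccl7, Ccl17 and Ccl20. No paired analysis was possible because there is 1 group.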
